A study of Mus musculus with 4 samples.

Results

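The proteasome genes were examined in mouse CD4+ T cells cultured with TGFb1, with or without progesterone. They were defined by symbol: every gene with a probe set annotated to a single symbol beginning Psma, Psmb, Psmc, Psmd, Psme or Psmg was a member, and each gene was represented by its brightest such probe set. The rule found 48 genes among the 18193 genes with a single-gene probe set. Of these, 46 passed the filter on signal level and were tested among 10501 genes, and 44 of them encode a subunit, an activator or an assembly chaperone of the proteasome. The other two tested genes, Psmc3ip and Psme3ip1, carry proteasome-like names without being proteasome subunits.

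Naive CD4+ cells from mouse spleen and from peripheral and mesenteric lymph nodes were kept for 7 days in medium with 10% serum and the T cell mitogen concanavalin A at 2.5 ug/ml. One group received human TGFb1 at 1 ng/ml (2 arrays). The other received the same TGFb1 with progesterone at 2000 ng/ml (2 arrays). Both groups therefore carried concanavalin A and TGFb1, and neither untreated cells nor cells given progesterone alone were part of the comparison. The strain, sex and age of the mice are not given in the sources used here. The labels do not say whether the arrays of a group came from separate mice or cultures, so p-values here reflect array-to-array spread alone, which may be technical.

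The proteasome is the protease that degrades ubiquitin-tagged proteins in the cytosol and nucleus. Its barrel-shaped core holds outer alpha rings, which gate entry, around inner beta rings, which carry the cutting sites. A regulatory particle made of a base with ATPases and a lid with a deubiquitinase recognises, unfolds and feeds in the substrate. In lymphocytes and in cells exposed to interferon gamma, the catalytic beta subunits Psmb5, Psmb6 and Psmb7 are replaced in newly built cores by Psmb8, Psmb9 and Psmb10, giving the immunoproteasome, which shapes the peptides displayed on class I molecules. Transcription of the constitutive subunits is known to depend in part on Nfe2l1, which binds antioxidant response elements, and that of the immunoproteasome on interferon-responsive factors.

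No proteasome subunit, activator or chaperone passed the test of progesterone with TGFb1 against TGFb1 alone, in either direction. The 44 genes had log2 differences between -0.35 for the lid subunit Psmd8 and 0.36 for the base ATPase Psmc4, with a median of -0.0083 (n = 2 arrays a group). Each difference is the progesterone mean less the mean without it, in log2(signal + 16) after quantile normalisation. Such differences understate changes of dim genes. The test was limma's moderated linear model with Benjamini-Hochberg adjustment over all 10501 genes, and the lowest adjusted p among the 44 genes was 0.0667. Over all genes tested, 857 changed (8.16%), of which 314 rose (2.99%) and 543 fell (5.17%). Among the 46 members, 0 rose and 1 fell, the non-subunit gene Psmc3ip. At an unadjusted p under 0.05 there were 6 of the 44 genes (Psmb9, Psmc2, Psmc4, Psmd6, Psmd8 and Psmd13), beside 2524 of the 10501 genes tested. In bulk RNA, fewer cells with a transcript and less of it per cell cannot be told apart.

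The 95% intervals cover array-to-array spread after quantile normalisation, and not the choice of scaling. Under other scalings, where the median of all genes also shifted, some values fell outside them. Psmd8, for instance, was -0.77 on the deposited values, against an interval of -0.57 to -0.13. For 41 of the 44 genes the whole interval lay within a 1.5-fold change in either direction, and for all 44 it lay within 1 log2 unit. The exceptions at 1.5-fold were the beta-ring subunit Psmb2, the ATPase Psmc4 and the activator Psme3. Over all 10501 genes tested, 5134 intervals lay within 1.5-fold and 8938 within 1 log2 unit. Among the 6621 genes tested from the upper 25% of probe sets by level, 4434 and 6177 did. The groups did not overlap, with both progesterone arrays higher, for 12 of the 44 genes, beside 29.8% of all genes tested. Both progesterone arrays were lower for another 12 genes, beside 26% of all genes tested. Values of the other 20 genes overlapped between the groups.

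**Figure D1:**
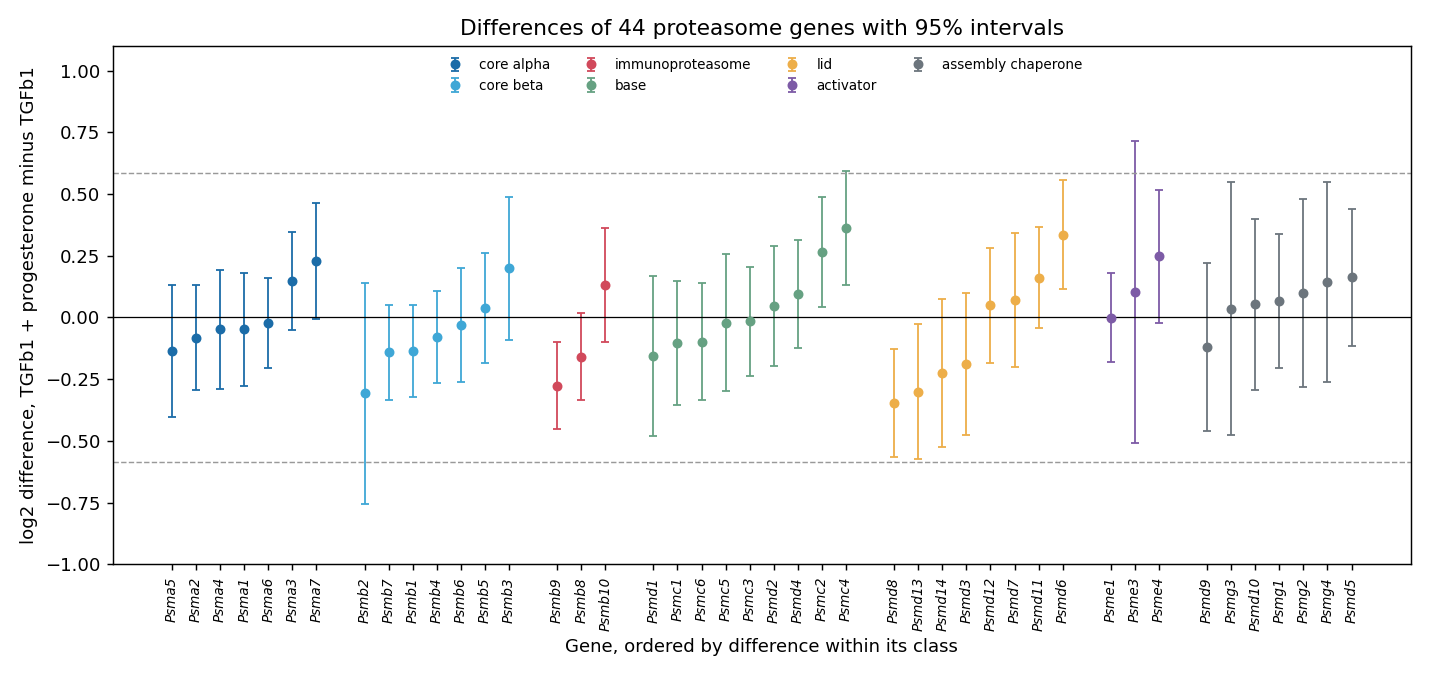
Log2 difference (progesterone with TGFb1 minus TGFb1 alone) on the vertical axis for each of the 44 proteasome genes. Genes are grouped by class on the horizontal axis. Points mark the estimate, lines the 95% interval and dashed lines a 1.5-fold change. After quantile normalisation, the points run from -0.35 (Psmd8) to 0.36 (Psmc4), and 41 of the 44 intervals stay between the dashed lines.

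In the median, the proteasome genes differed less between the groups than other genes did, and also less between replicate arrays. Their median absolute difference between the groups was 0.126 log2 units, beside 0.198 over all genes tested. The same quantity between the replicate arrays was 0.0966 for TGFb1 alone and 0.0736 with progesterone, beside 0.173 and 0.141 over all genes. Since the spread of a probe set depends on its signal level, the 6621 genes tested from the upper 25% of probe sets by level give a closer comparison for these mostly bright probe sets. There the median absolute difference was 0.173 between groups, 0.150 between the TGFb1 arrays and 0.111 between the progesterone arrays. None of the 44 differences exceeded 1.5-fold, beside 503 of those bright genes (7.60%) and 1196 of all genes (11.4%). These values are a description, and no test was made of the spread.

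**Figure D2:**
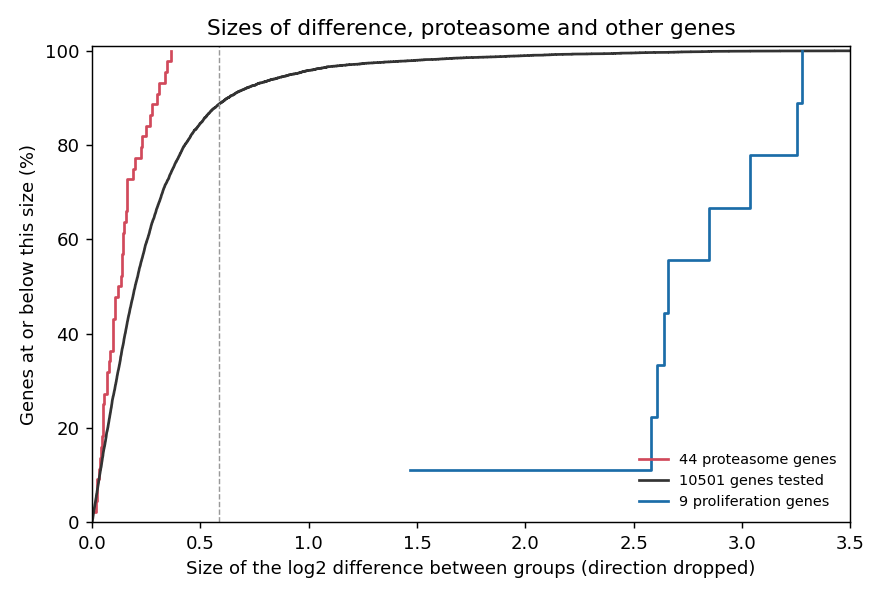
Cumulative share of genes (vertical axis) by absolute log2 difference between the groups (horizontal axis) for the 44 proteasome genes, all 10501 genes tested and 9 proliferation genes. The proteasome curve reaches its end before 0.58, the 1.5-fold line, whereas 11.4% of all genes lie beyond it and the 9 proliferation genes all lie further out.

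Of the alpha-ring subunits, which form the gated outer rings of the core, none of 7 passed the test, and their median difference was -0.05. Psma7 was the highest of them. Its normalised signals were 835 and 884 with TGFb1 alone and 963 and 1060 with progesterone, a difference of 0.23 ± 0.10 (SE, n = 2; limma adjusted p = 0.218). The progesterone arrays were both above the TGFb1 arrays, but a second Psma7 probe set differed by only 0.01. Psma5 was the lowest, with 1376 and 1141 against 1184 and 1094, a difference of -0.14 ± 0.11 (limma adjusted p = 0.510). Its values overlapped between the groups on this probe set. On the second Psma5 probe set they did not, with 708 and 690 against 573 and 534, a difference of -0.33 (adjusted p = 0.132 in the fit over probe sets).

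The beta rings hold the cutting sites and their non-catalytic neighbours. None of these 7 genes passed the test, and their median difference was -0.08. The non-catalytic Psmb2 had the lowest value of the core, with signals of 734 and 488 for TGFb1 alone and 526 and 439 with progesterone. The difference of -0.31 ± 0.19 (limma adjusted p = 0.380) came with TGFb1 arrays that were far apart, and its 95% interval ran from -0.76 to 0.14. Psmb3, another non-catalytic subunit, was the highest at 0.20 ± 0.12 (adjusted p = 0.379), from 1391 and 1098 against 1462 and 1380. Its second probe set differed by -0.06, so the probe sets gave opposite signs.

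The 3 constitutive catalytic subunits had differences from -0.14 to 0.04. Psmb5, which carries the chymotrypsin-like site, had signals of 860 and 904 with TGFb1 alone and 923 and 891 with progesterone. The groups overlapped, and the difference was 0.04 ± 0.10 (95% interval -0.18 to 0.26; limma adjusted p = 0.842). Psmb6, the caspase-like subunit, gave 801 and 755 against 775 and 748, a difference of -0.03 ± 0.10 (95% interval -0.26 to 0.20; adjusted p = 0.888). Psmb7, the trypsin-like subunit, gave 1867 and 1792 against 1636 and 1680, a difference of -0.14 ± 0.08 (95% interval -0.33 to 0.05; adjusted p = 0.348). Both progesterone arrays were below both TGFb1 arrays for Psmb7 only among these 3 genes.

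The immunoproteasome subunits had the lowest class median, -0.16 over 3 genes, and did not share a sign after quantile normalisation. Psmb9, which takes the place of Psmb6, had normalised signals of 2786 and 2727 with TGFb1 alone and 2286 and 2257 with progesterone. The replicates were close together and the groups far from overlapping, with a difference of -0.28 ± 0.08 (0.825-fold; 95% interval -0.45 to -0.10). This had an unadjusted p of 0.00697 and a limma adjusted p of 0.0690, above the threshold of 0.05. Psmb8, which takes the place of Psmb5, gave 3392 and 3275 against 2896 and 3072, a difference of -0.16 ± 0.08 (95% interval -0.34 to 0.02; adjusted p = 0.250). Psmb10, which takes the place of Psmb7, gave 1104 and 982 against 1138 and 1149, a difference of 0.13 ± 0.10 (95% interval -0.10 to 0.36; adjusted p = 0.459). The sign of Psmb10 turned with the scaling: it was -0.27 on the deposited values, where its groups overlapped, -0.39 after median centring and 0.03 with equal trimmed means. Relative to the median of all genes, Psmb10 lay at 0.11 after quantile normalisation but at -0.05, -0.05 and -0.03 under those other scalings. After quantile normalisation each of the 3 genes had groups that did not overlap on these probe sets, and none passed the test. Over all genes tested, 29.8% did not overlap with progesterone higher and 26% with progesterone lower. A second, dimmer Psmb8 probe set gave 190 and 137 against 162 and 152, a difference of -0.04 with overlapping groups.

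The bases upstream of the start sites of the catalytic pairs are shown because their known regulators differ, and because within an array Psmb8 and Psmb9 shifted down against their counterparts while Psmb10 shifted up against its own. They are the 250 bases before the start site in RefSeq on GRCm38.p6, at chr14:54617996-54618245 (minus strand), chr11:70525107-70525356 (plus), chr17:34197945-34198194 (plus), chr17:34187331-34187580 (minus) and chr8:105938393-105938642 (minus). Capitals mark matches on either strand to the antioxidant response element core TGACNNNGC, the STAT site TTCNNNGAA, the interferon-stimulated response element core GAAANNGAA, the steroid receptor half-site TGTTCT or the steroid receptor palindrome core ACANNNTGT.
Psmb5: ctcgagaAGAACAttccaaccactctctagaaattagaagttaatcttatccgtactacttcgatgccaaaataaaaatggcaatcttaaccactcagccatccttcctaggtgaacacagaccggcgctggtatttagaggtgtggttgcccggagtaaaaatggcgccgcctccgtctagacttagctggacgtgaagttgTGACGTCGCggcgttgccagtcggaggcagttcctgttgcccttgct
Psmb6: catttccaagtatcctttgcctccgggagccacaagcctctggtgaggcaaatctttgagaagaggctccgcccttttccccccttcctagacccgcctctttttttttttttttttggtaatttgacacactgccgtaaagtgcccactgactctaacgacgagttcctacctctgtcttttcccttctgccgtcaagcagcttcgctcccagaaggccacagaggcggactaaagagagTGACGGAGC
Psmb8: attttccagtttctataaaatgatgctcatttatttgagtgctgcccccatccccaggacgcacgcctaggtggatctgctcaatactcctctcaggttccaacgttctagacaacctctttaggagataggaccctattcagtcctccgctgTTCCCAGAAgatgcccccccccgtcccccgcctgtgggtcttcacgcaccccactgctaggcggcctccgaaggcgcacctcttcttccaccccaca
Psmb9: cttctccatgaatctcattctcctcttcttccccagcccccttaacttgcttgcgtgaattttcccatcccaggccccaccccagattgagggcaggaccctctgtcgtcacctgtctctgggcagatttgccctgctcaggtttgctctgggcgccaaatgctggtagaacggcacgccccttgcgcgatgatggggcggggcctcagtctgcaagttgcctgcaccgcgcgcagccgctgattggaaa
Psmb10: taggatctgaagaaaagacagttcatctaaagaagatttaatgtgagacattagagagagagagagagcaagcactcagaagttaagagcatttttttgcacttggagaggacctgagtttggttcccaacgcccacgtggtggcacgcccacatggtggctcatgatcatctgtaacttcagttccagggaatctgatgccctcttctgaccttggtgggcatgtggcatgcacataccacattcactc
Psmb5 held a half-site beginning 243 bases upstream and an antioxidant element core beginning 47 bases upstream. Psmb6 held an antioxidant element core beginning 9 bases upstream, and Psmb8 held a STAT site beginning 97 bases upstream. Psmb9 and Psmb10 held none of these letter strings in the window, which says nothing of the factors themselves.

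Promoter windows of 300 bases, 250 before to 50 after the start, were found for 37 of the 44 genes. The antioxidant element core was present in 6 of them (Psmb5, Psmb6, Psmc6, Psmd9, Psmd12 and Psme4), beside 12.4% of all 32851 promoters. The interferon-stimulated element core was present in 7 (Psmb3, Psmb4, Psmc2, Psmd4, Psmd9, Psme1 and Psmg4), beside 8.56% of all promoters. The STAT site was present in 3 (Psmb8, Psmd2 and Psmg1), beside 8.3%. The steroid receptor half-site was present in 6 (Psmb5, Psmc4, Psmc5, Psmd4, Psmg1 and Psmg4), beside 19%, and the palindrome core in 0, beside 6.85%. These are letter matches, not sites shown to be bound, and Psmb1, Psmb2, Psmb7, Psmc3, Psmd3, Psmd7 and Psmg2 had no matched window.

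Differences between subunits within an array depend little on a single scale factor of the array. They can still depend on array effects that vary with signal level. The catalytic pairs were also compared this way, each set to 0 at the mean of the TGFb1 arrays. The mean of the 3 immunoproteasome genes minus the mean of their 3 counterparts was 0.03 and -0.03 on the TGFb1 arrays and -0.08 and -0.03 on the progesterone arrays. The group difference was -0.06, with the second progesterone array just below the lower TGFb1 array. This mean was small and unsteady, at -0.09 on the deposited values, -0.03 without TGFb1 replicate 1 and -0.09 without TGFb1 replicate 2. By pair, the shift was -0.20 for Psmb8 minus Psmb5 and -0.25 for Psmb9 minus Psmb6, but 0.27 for Psmb10 minus Psmb7. The 3 pairs did not share a sign, and their mean holds opposite ones. On the deposited values without normalisation these shifts were -0.27, -0.32 and 0.32. In each of the 3 pairs the brighter subunit shifted down against the dimmer one, and the part of signal level was not tested. Psmb9 minus Psmb10 was -0.07 and 0.07 on the TGFb1 arrays and -0.39 and -0.43 on the progesterone arrays, a difference of -0.41. No p-value is attached, since the genes were chosen with results known and 2 arrays against 2 cannot give an exact permutation p below 0.333.

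**Figure D3:**
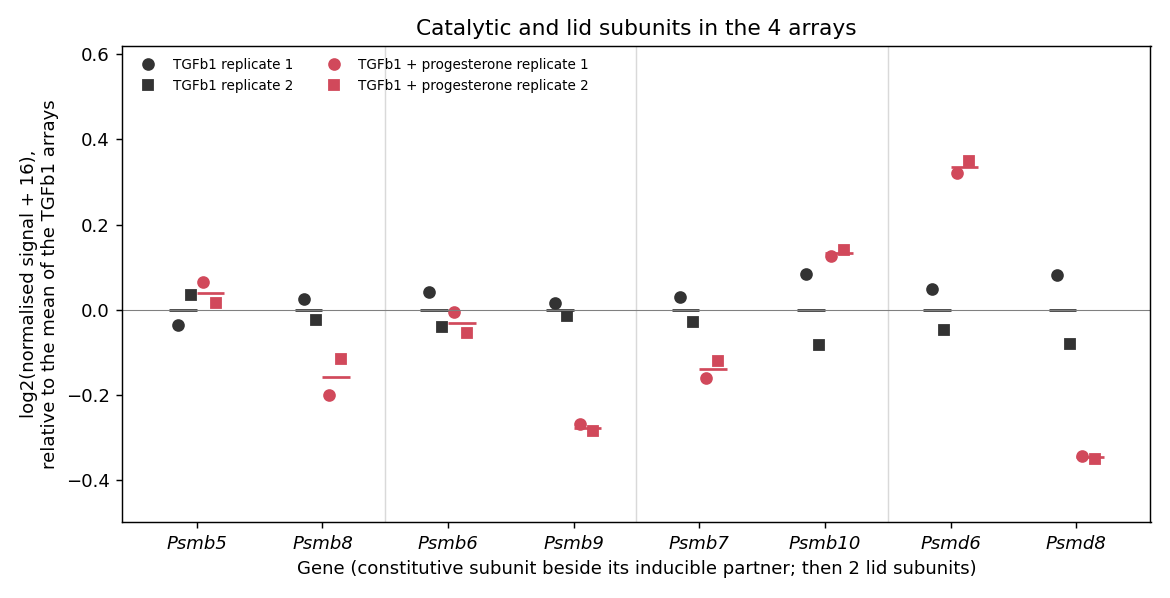
Log2 signal of each array relative to the mean of the TGFb1 arrays (vertical axis) for the catalytic pairs Psmb5 and Psmb8, Psmb6 and Psmb9, Psmb7 and Psmb10, and for the lid subunits Psmd6 and Psmd8; each point is 1 array. After quantile normalisation Psmb7, Psmb8, Psmb9 and Psmd8 lie lower and Psmb10 and Psmd6 higher on both progesterone arrays, while Psmb5 and Psmb6 overlap; Psmb10 and Psmd6 turn on the deposited values (-0.27 and -0.06).

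The base of the regulatory particle holds the ring of ATPases that unfold substrates (Psmc1 to Psmc6), the scaffold subunits Psmd1 and Psmd2 and the ubiquitin receptor Psmd4. None of the 9 base genes passed the test, and their median difference was -0.02. The ATPase Psmc4 had signals of 1326 and 1182 with TGFb1 alone and 1548 and 1684 with progesterone, a difference of 0.36 ± 0.10 (1.29-fold; 95% interval 0.13 to 0.59; limma adjusted p = 0.0707). Both progesterone arrays were higher on this probe set, but the other Psmc4 probe set differed by -0.02. On the deposited values and after median centring Psmc4 turned to -0.06 and -0.18, although it stayed above the all-gene median, by 0.16 in both. Psmc2, a neighbouring ATPase, was the next highest base gene at 0.27 ± 0.10 (adjusted p = 0.147), and its 3 probe sets were all positive, from 0.07 to 0.27. Psmd1 was the lowest, with 328 and 327 against 263 and 324, a difference of -0.16 ± 0.14 (adjusted p = 0.538). One progesterone array of Psmd1 was close to the TGFb1 arrays and the other was lower.

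The lid surrounds the deubiquitinase Psmd14, which strips ubiquitin from arriving substrates. None of its 8 genes passed the test and their median was -0.07, yet it held the widest contrast of any class. Psmd8, a structural lid subunit, gave 1753 and 1565 with TGFb1 alone and 1302 and 1295 with progesterone. Both progesterone arrays were lower, a difference of -0.35 ± 0.09 (0.786-fold; 95% interval -0.57 to -0.13; limma adjusted p = 0.0667). Psmd6, another structural lid subunit, gave 889 and 830 against 1077 and 1099, a difference of 0.34 ± 0.10 (1.26-fold; 95% interval 0.11 to 0.56; adjusted p = 0.0778). Its second probe set had the same sign at 0.13. Psmd6 turned to -0.06 on the deposited values, where its groups overlapped, and to -0.19 after median centring, at 0.16 above the all-gene median in both. Psmd8 minus Psmd6 within an array was 0.03 and -0.03 with TGFb1 alone and -0.67 and -0.70 with progesterone, a pair picked as the extremes of the class and given only as a description. Psmd13 was also lower, at -0.30 ± 0.12 (adjusted p = 0.173), but its 4 probe sets ran from -0.35 to 0.24. Psmd14 differed by -0.22 ± 0.13 (adjusted p = 0.332).

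The activators open the core without ubiquitin or ATPases, and none of the 3 measured genes passed the test. Psme1, a subunit of the interferon-inducible cap, gave 3514 and 3491 with TGFb1 alone and 3353 and 3656 with progesterone, with the TGFb1 values inside the progesterone range. Its 95% interval ran from -0.18 to 0.18 (limma adjusted p = 0.998). Psme3, which forms a nuclear cap, gave 234 and 425 against 296 and 392, a difference of 0.10 ± 0.26 (limma adjusted p = 0.849). It had the widest interval of the 44 genes, -0.51 to 0.71, and its second probe set differed by -0.03. Psme4, a large single-chain activator, gave 569 and 556 against 723 and 622, a difference of 0.25 ± 0.12 (adjusted p = 0.240). Both progesterone arrays were higher, and its 3 probe sets differed by 0.04, 0.17 and 0.25. Psme2, the partner of Psme1, shares its probe set with another annotated gene and is not reported.

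The assembly chaperones, which help build the core (Psmg1 to Psmg4) or the base (Psmd5, Psmd9 and Psmd10) and leave the finished particle, had 6 positive and 1 negative difference. Over all genes tested, 5580 of 10501 differences were positive. None of the 7 passed the test, and their median was 0.07. Relative to the all-gene median, it lay at 0.05 after quantile normalisation. It lay at -0.02 on the deposited values and after median centring, and at -0.01 with equal trimmed means. Psmd5 was the highest, with 499 and 458 against 571 and 505, a difference of 0.16 ± 0.12 (limma adjusted p = 0.449). Psmd9 was the lowest and the single negative one, with 156 and 150 against 138 and 141, a difference of -0.12 ± 0.15 (adjusted p = 0.662). All 7 intervals lay within 1.5-fold.

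Psmc3ip, a cofactor of meiotic and homologous recombination and not a proteasome subunit, was the only gene of the symbol-based list to change. Its normalised signals were 91.9 and 68.4 with TGFb1 alone and 37.1 and 30.5 with progesterone. It fell by 0.94 log2 units (SE 0.22; limma adjusted p = 0.0440), and its 2 probe sets differed by -0.94 and -0.91. It lost the call when either progesterone array was left out (adjusted p = 0.103 and 0.212) or the first TGFb1 array was (0.188). It also lost it with equal trimmed means (0.0906), with no level filter (0.139) and with no intensity trend (0.0505). Psme3ip1, which binds the Psme3 cap, differed by 0.08 ± 0.11 (adjusted p = 0.701). Below the filter were Psma8, an alpha subunit of the testis, with deposited signals of 3.40 and 4.92 for TGFb1 alone and 13.1 and 5.33 with progesterone, and Psmb11, the thymus-specific beta subunit, with 3.80 and 2.33 against 2.23 and 2.84.

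Different probe sets of a gene often disagreed. Of the 44 genes, 20 had more than 1 probe set above the filter, and for 12 of those the probe sets had differences of opposite sign. Psmb5, Psmb6, Psmb7, Psmb9, Psmb10, Psmd1, Psmd8 and Psme1 had 1 probe set above the filter, so no second reading of them was available.

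These values depended on how the arrays were scaled, and not all of them moved by the same amount. The trimmed mean of the deposited signals, leaving out 2% at each end, was 155 and 145 for TGFb1 alone and 138 and 108 with progesterone. The median difference over all genes tested was 0.02 after quantile normalisation, -0.22 on the values as deposited, -0.34 after median centring of the arrays and 0.05 with arrays set to the same trimmed mean. All 10 named genes with a positive difference after quantile normalisation were negative on the deposited values and after median centring, and 1 of them, Psmb5, also with equal trimmed means. Relative to that median, the immunoproteasome was the lowest class and the activators the highest under each of the 4 scalings. The immunoproteasome median lay at -0.18, -0.38, -0.38 and -0.35 relative to it, and the activator median at 0.08, 0.03, 0.03 and 0.04. The core medians were -0.07, -0.25, -0.25 and -0.23. These ranks did not hold under every other alternative. Without probe sets marked as shared between transcripts, the median difference of the lid (-0.19) was below that of the immunoproteasome (-0.16). The activator median (0.04) was then below that of the chaperones (0.07). Without progesterone replicate 2 the activators were at -0.06 and the chaperones at 0.05. Under each of the 4 scalings the activator median was the value of Psme3. The number of members below the all-gene median was 24 of 46 after quantile normalisation and 36 of 46 under each of the other scalings. Over all genes, 142 rose and 795 fell on the deposited values, 148 rose and 3631 fell (34.6%) after median centring, and 348 rose and 577 fell with equal trimmed means. Median centring called 27 of the 46 members fallen (58.7%), beside that 34.6% of all genes. Psmd8 passed the test on the deposited values and with equal trimmed means, and Psmb9 with equal trimmed means.

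**Figure D4:**
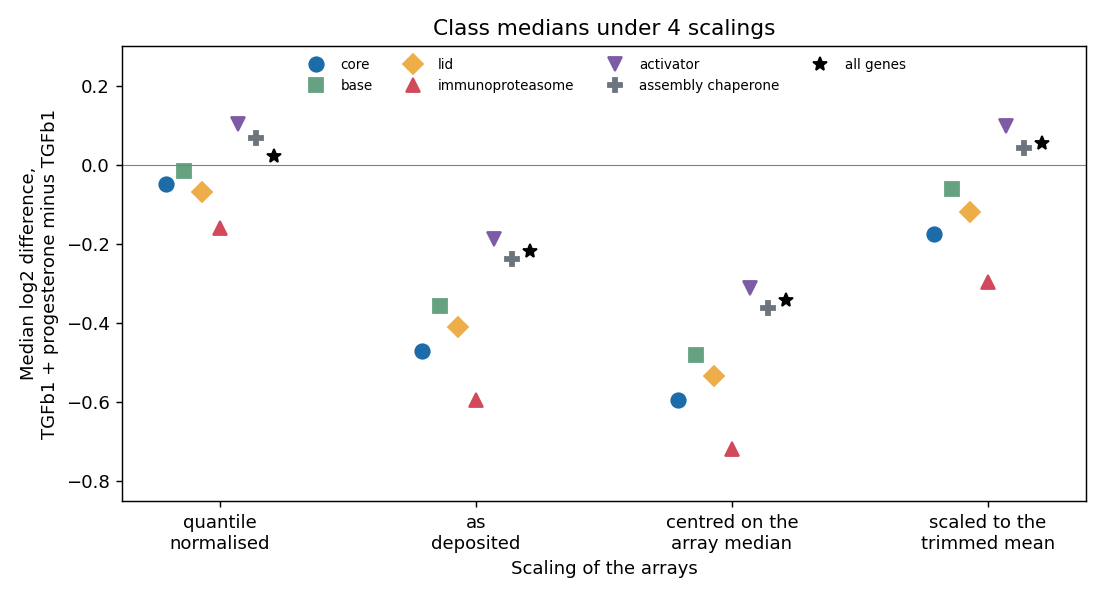
Median log2 difference of each proteasome class (vertical axis) under the 4 scalings of the arrays (horizontal axis), with the median of all genes tested beside them. All classes shift down with the deposited and median-centred values, and the immunoproteasome has the lowest median under each scaling.

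None of the 42 tested genes of the pathway around the proteasome passed the test, beside 8.16% of all genes, and 8 (19%) had an unadjusted p under 0.05, beside 24% of all genes. Of 11 measured factors that bind or help build the particle, 0 rose and 0 fell in limma's test (1 at an unadjusted p under 0.05), with a median of -0.06. They ran from -0.21 for Usp14 (limma adjusted p = 0.432) to 0.39 for Ube3a (limma adjusted p = 0.0870). Pomp, the maturation factor of the core, differed by -0.11 ± 0.09 (adjusted p = 0.523). Of 8 genes for ubiquitin supply and delivery, 0 passed (3 at an unadjusted p under 0.05). Their median was -0.01 and their range -0.38 to 0.42. Of 11 regulators and targets around Nfe2l1, 0 passed (1 unadjusted), with a median of 0.15 and a range of -0.88 to 1.08. Nfe2l1 itself differed by -0.05 ± 0.13 (adjusted p = 0.852). Of 12 genes of class I presentation and its interferon-responsive regulators, 0 passed (3 unadjusted; median -0.03). These 12 ran from -0.30 for Irf1 (limma adjusted p = 0.290) to 0.42 for Calr (limma adjusted p = 0.0519). Among them Tap1, the peptide transporter encoded beside Psmb9, differed by -0.09 ± 0.09 (limma adjusted p = 0.585). B2m, the class I light chain, differed by 0.04 ± 0.06 (limma adjusted p = 0.687).

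The same arrays held large differences elsewhere. All 9 measured proliferation genes fell, by a median log2 difference of -2.66 (range -3.28 to -1.47). The T cell markers Cd3d, Cd3e, Cd3g, Cd4 and Cd5 were above the filter, and 0 of 5 passed the test (2 unadjusted). After quantile normalisation Cd3d, Cd3e and Cd3g differed by 0.05, 0.11 and 0.09. Cd4 differed by -0.34 (limma adjusted p = 0.0843) and Cd5 by -0.21 (limma adjusted p = 0.161). Their summed deposited signals were 21943 to 23148 for TGFb1 alone and 15158 to 19313 with progesterone. Such sums are not scaled between arrays, and the trimmed means of the progesterone arrays were lower. Summed signals of 5 myeloid markers were 175 to 351 and 760 to 851, and 1 of the 4 tested, the lysozyme gene Lyz2, rose by 2.69 (limma adjusted p = 0.00726). Lyz2 held most of that sum with progesterone, at deposited signals of 676 and 588 against 189 and 53.5 for TGFb1 alone. The other 3 did not share a sign: Itgam differed by -0.81 (adjusted p = 0.255), Csf1r by 0.17 (0.774) and Cd68 by 0.66 (0.101). Of the CD8, B cell, dendritic, NK and mast cell lists, 0 of 9 tested markers passed (2 unadjusted). Their summed signals were 149 to 174 and 91.2 to 166 for CD8 cells, 73.0 to 104 and 87.0 to 190 for B cells, 45.8 to 71.5 and 65.4 to 90.5 for dendritic cells, 179 to 244 and 100.2 to 134 for NK cells, and 928 to 1529 and 882 to 894 for mast cells, TGFb1 alone first. No marker of these lists was at 0 on any array. Sex-linked genes also differed. Xist had normalised signals of 10.6 and 10.8 with TGFb1 alone and 1432 and 1107 with progesterone, a difference of 5.58 (limma adjusted p = 2.1e-05). The Y-linked genes were all lower with progesterone: Eif2s3y by -5.18 (adjusted p = 3.2e-05), Kdm5d by -3.77 (0.00049) and Uty by -2.56 (0.0017). Eif2s3y signals were 596 and 671 against 3.3 and 0.50. The labels do not give the sex of the mice. The 2 groups separate by these sex-linked genes as they do by progesterone. Effects of sex and of progesterone on other genes therefore cannot be told apart. The part of proliferation, Lyz2 and sex-linked genes in the proteasome values was not tested.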

How the data were processed

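Biotin-labelled cRNA from 2 ug of total RNA was hybridised to 4 arrays, 2 per group. The values the authors deposited are linear probe-set intensity values; the submitters' processing notes name MAS5. Its version and scaling target are not given in the sources used here. Of 45101 probe sets, 64 controls were left out. The platform annotation named 1 gene for 34945, several for 932 and none for 9160, and 34741 were updated by Entrez identifier to GRCm38.p6 names. Intensities were quantile normalised and taken as log2(signal + 16). Probe sets above the median mean level were kept, with the brightest single-gene set per gene. The 2 groups were compared in R 4.3.3 by limma 3.58.1, using lmFit, then eBayes allowing the variance to follow intensity (5.51 prior and 2 residual degrees of freedom). Adjusted p-values are Benjamini-Hochberg's, and 0.05 was the threshold. The precision is limited by the number of arrays. The code was tested on simulated data. The members, classes and gene lists were chosen with earlier results of these data known.

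Named genes were the catalytic and activator subunits, members that passed, the highest and lowest of each class, members outside the classes or below the filter, and passing genes of the other lists. Psmc2, Psmd13, Psmd14, Pomp, Usp14, Ube3a, Nfe2l1, Tap1, B2m, Irf1, Calr and the marker genes were named after their values were seen. Alternatives covered scaling, pseudocount, filter, variance model, probe-set choice, replicate block and leaving out each array.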

Additional observations from a re-analysis of the deposited data

How the results depend on the processing

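The count of genes changed over all genes was 857, and it became 3779 with arrays centred on their medians, 488 with no level filter, 464 with no intensity trend, 1936 with the replicate block and 246 to 1215 when 1 array was left out. Members that rose numbered 0, or 3 with the replicate block (Psmc2, Psmc4 and Psmd6) and 0 to 1 with an array left out (Psmc4 without TGFb1 replicate 1, Psmc2 without TGFb1 replicate 2). Members that fell numbered 1, or 2 as deposited, 27 when centred, 2 with equal trimmed means, 0 with no filter or no trend, 0 in the upper 25% by level (where Psmc3ip was not tested), 3 with the replicate block (Psmb9, Psmc3ip and Psmd8) and 0 to 5 with an array left out. The 5 came without TGFb1 replicate 2 (Psmb2, Psmb9, Psmc3ip, Psmd8 and Psmd14). The lone array left in a group is then assumed to vary like the other group. Same-numbered arrays had deviations correlated at 0.176, from which no pairing follows, since nothing in the labels ties the numbers to a shared source.

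The median of the members was -0.345 as deposited, -0.469 centred, -0.0542 with equal trimmed means, 0.0354 with the mean of each gene's probe sets and -0.0462 to 0.0147 with an array left out. As deposited, centred and, where it moved, with equal trimmed means, the class medians were -0.472, -0.595 and -0.175 for the core, -0.356 and -0.480 for the base, -0.410, -0.533 and -0.119 for the lid, -0.595, -0.718 and -0.297 for the immunoproteasome, -0.188 and -0.312 for the activators and -0.239 and -0.362 for the assembly chaperones. The lid median was -0.185 without probe sets marked as shared between transcripts and the immunoproteasome median -0.0994 with the mean of probe sets. With an array left out the core ran from -0.0844 to 0.0012, the lid from -0.0884 to 0.00207, the immunoproteasome from -0.198 to -0.108 and the activators from -0.0622 to 0.228. Psmb5 turned to -0.453 (limma adjusted p = 0.0355) when centred, where the median of all genes also shifts down. Over the named genes and all alternatives, 304 values kept their direction and side of the threshold, 25 moved, 20 gained a call, 6 lost one and 1 reversed. With 2 arrays a group, the 95% intervals of the 44 genes reach 0.176 to 0.610 log2 units to either side (median 0.237), and differences of up to 0.36 did not pass the test.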
